A study of Homo sapiens with 18 samples.

Results

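Mitochondrial ribosomal proteins are encoded in the nucleus, translated in the cytosol and imported into mitochondria, where they join ribosomal RNAs of the mitochondrial genome to form the small and large subunits of the mitoribosome. This ribosome makes only the few inner-membrane proteins of the respiratory chain and ATP synthase that mitochondrial DNA still encodes. Some of its proteins have bacterial counterparts, whereas others were added in the mitochondrial lineage. The genes examined were all those in the deposited gene counts whose symbol starts with MRPL or MRPS followed by a number, which gave 79 of 23106 genes. Of these, 76 are protein-coding symbols and 3 are pseudogene symbols (MRPL42P5, MRPL45P2 and MRPS31P5). The symbols follow the historical naming, so MRPS30 and MRPS18A are counted here with the large subunit, where both proteins are found in structures, and MRPS36 with neither, since its protein belongs to the 2-oxoglutarate dehydrogenase complex.

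PolyA+ RNA was sequenced from 3 human cell lines in normoxia and hypoxia, with 3 samples in each of the 6 groups. HKC-8 is an immortalised renal proximal tubule line and HepG2 is a hepatocellular carcinoma line. RCC4 VHL is a renal carcinoma line carrying the VHL gene, whose coding region is mutated in the parental RCC4 line. The labels give 0.5% oxygen for 16 h for hypoxic HKC-8 and HepG2 cells and 1% for 24 h for hypoxic RCC4 VHL cells. The titles of the HKC-8 samples give 0.1% for the hypoxic and 21% for the normoxic ones, and a legend of the study gives 0.5% for 16 h for the RNA sequencing, with the carcinoma line named RCC4. Each line is a single cell population, and nothing in the labels says whether the samples of a group were separate cultures, so p-values measure the spread between these samples. Between 40915980 and 97984260 reads were counted on genes in a sample, most in HKC-8 cells (75441764 to 97984260). The 8 hepatocyte marker genes were all higher in HepG2 than in either kidney line. HKC-8 cells had PAX8 mRNA (170 ± 24.6 CPM, SD, n = 3, normoxia, where CPM is a gene's count scaled to the TMM-adjusted size of its library), but the proximal tubule transporters LRP2, CUBN, AQP1 and SLC34A1 were each at or below 0.0510 CPM in normoxia. Known HIF targets were induced in every line, with NDRG1 rising from 28.2 ± 8.06 to 741 ± 167 CPM in HKC-8, from 49.0 ± 1.30 to 656 ± 3.94 in RCC4 VHL and from 43.1 ± 5.16 to 509 ± 43.3 in HepG2 cells (SD, n = 3). VEGFA rose in the 3 lines (edgeR log2 fold changes of 1.72, 0.87 and 1.38), and CA9, the membrane carbonic anhydrase, rose in HKC-8 and HepG2 cells (4.92 and 8.45) but was near 0 in all RCC4 VHL samples and not tested there.

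The promoters of 6 of the genes are shown first because the hypoxic response of these genes is described below and because they carry the short sequence words that many of these genes share. Each is the stretch from 70 bases before to 30 bases after the RefSeq transcription start (build GRCh38.p14), read in the direction of transcription. Capitals mark matches to the ETS-type word (CCGGAAG, read on either strand) and the YY1-type word (AAGATGGC, read on either strand), and in MRPS6 the hypoxia response element core GCGTG. The reverse complement of this core, CACGC, also starts at base 11 after the start in MRPS23, where it is left in lower case. ETS-type words are the core bound by GABP (also called nuclear respiratory factor NRF-2), and YY1 is a zinc-finger factor whose word often lies just after a start site.
MRPL20, chr1:1407264-1407363, minus strand: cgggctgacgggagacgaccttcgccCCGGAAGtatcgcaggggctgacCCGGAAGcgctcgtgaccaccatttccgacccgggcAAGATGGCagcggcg
MRPL46, chr15:88467359-88467458, minus strand: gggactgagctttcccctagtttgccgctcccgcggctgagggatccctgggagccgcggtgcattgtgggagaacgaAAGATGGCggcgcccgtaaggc
MRPS7, chr17:75261809-75261908, plus strand: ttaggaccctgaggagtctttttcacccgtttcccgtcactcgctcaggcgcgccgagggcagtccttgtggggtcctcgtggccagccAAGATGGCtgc
MRPL3, chr3:131502942-131503041, minus strand: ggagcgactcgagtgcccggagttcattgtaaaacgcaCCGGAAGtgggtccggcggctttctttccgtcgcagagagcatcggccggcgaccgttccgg
MRPS23, chr17:57850015-57850114, minus strand: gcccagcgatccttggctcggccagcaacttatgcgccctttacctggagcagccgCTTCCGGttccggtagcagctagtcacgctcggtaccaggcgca
MRPS6, chr21:34073508-34073607, plus strand: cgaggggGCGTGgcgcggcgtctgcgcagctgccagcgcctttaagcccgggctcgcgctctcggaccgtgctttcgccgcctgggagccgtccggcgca
MRPL20 has ETS-type words starting 44 and 21 bases before the start and a YY1-type word at base 16 after it. The YY1-type word starts at base 9 in MRPL46 and at base 20 in MRPS7, both without an ETS-type word in the stretch shown.

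The messenger RNAs of the mitochondrial ribosome together took a smaller share of the library in hypoxia in each line. In HKC-8 cells the 79 genes summed to 5207, 5103 and 4903 CPM of the total count in the normoxic samples and to 4187, 4361 and 4101 in the hypoxic ones. In RCC4 VHL cells the sums were 6446, 6581 and 6639 in normoxia and 5575, 5693 and 5607 in hypoxia. In HepG2 cells they were 5738, 6143 and 5405 in normoxia and 4604, 4545 and 4577 in hypoxia. Every hypoxic sample thus lay below every normoxic sample of its line, by 16.9%, 14.2% and 20.6% between the group means. In bulk RNA a lower share cannot be told apart from a higher amount of other transcripts, nor less RNA per cell from fewer cells that express a gene. The summed mRNAs of the large and of the small subunit were both lower. For HKC-8 cells the ratio of large to small came to 2.07 ± 0.0220 in normoxia and 2.05 ± 0.0381 in hypoxia, for RCC4 VHL cells to 1.63 ± 0.0101 and 1.6 ± 0.0227, and for HepG2 cells to 2.04 ± 0.00979 and 2.03 ± 0.0276 (SD, n = 3), differences of the size of the SDs or little more. These sums are given as values, without a test.

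In the gene-by-gene test (edgeR quasi-likelihood, TMM scaling, Benjamini-Hochberg adjusted p under 0.05 over all genes tested, called induced or repressed), mitochondrial ribosomal genes were repressed in each line and hardly ever induced. In HKC-8 cells 30 of 78 genes tested (38.5%) were repressed and 0 induced, whereas over all 13536 genes tested 9.12% were repressed and 11.2% induced. Their median log2 fold change was −0.30, against 0.00 for all genes, and 75 of 78 lay below 0. In RCC4 VHL cells 48 of 77 (62.3%) were repressed and 2 induced, where the background was 24.2% repressed and 25.9% induced of 12811 genes. The median was −0.15, again against 0.00, with 69 of 77 below 0. In HepG2 cells 49 of 79 (62.0%) were repressed and 1 induced, where the background was 19.2% repressed and 19.9% induced of 13623 genes. The median was −0.27 against 0.00, with 71 of 79 below 0. The changes were shallow: HKC-8 genes ranged from −0.69 to 0.15, those of RCC4 VHL from −0.38 to 0.56 and those of HepG2 cells from −0.68 to 0.44, and the medians correspond to levels 19%, 10.2% and 17% below normoxia. In 1 fit of all 18 samples, which share 1 estimate of the spread, 56 genes were repressed in HKC-8 and 21 in RCC4 VHL cells. The share of all genes called in that fit is not given, so these counts lack a background. The medians of the ribosomal genes were −0.30 and −0.16 there.

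**Figure D1:**
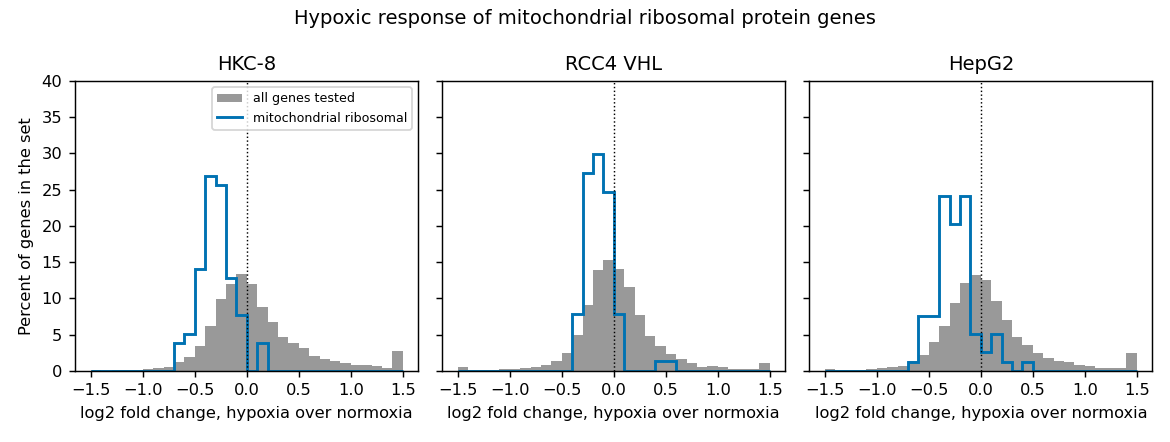
Distribution of the log2 fold change of hypoxia over normoxia in bins of 0.1, for all genes tested (grey) and for mitochondrial ribosomal genes (blue line), as percent of each set. Values beyond 1.5 are gathered in the end bins. The blue outline lies mostly to the left of 0 in each line.

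The values by sample gave the same picture without a model. All 3 hypoxic samples were below all 3 normoxic ones for 40 of 78 genes in HKC-8 (19.1% of all genes tested behaved so), for 55 of 77 in RCC4 VHL (27.6%) and for 53 of 79 in HepG2 cells (25.2%). The opposite, all hypoxic above all normoxic, held for 0, 3 and 3 genes (20.0%, 28.8% and 24.8% of all genes).

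**Figure D2:**
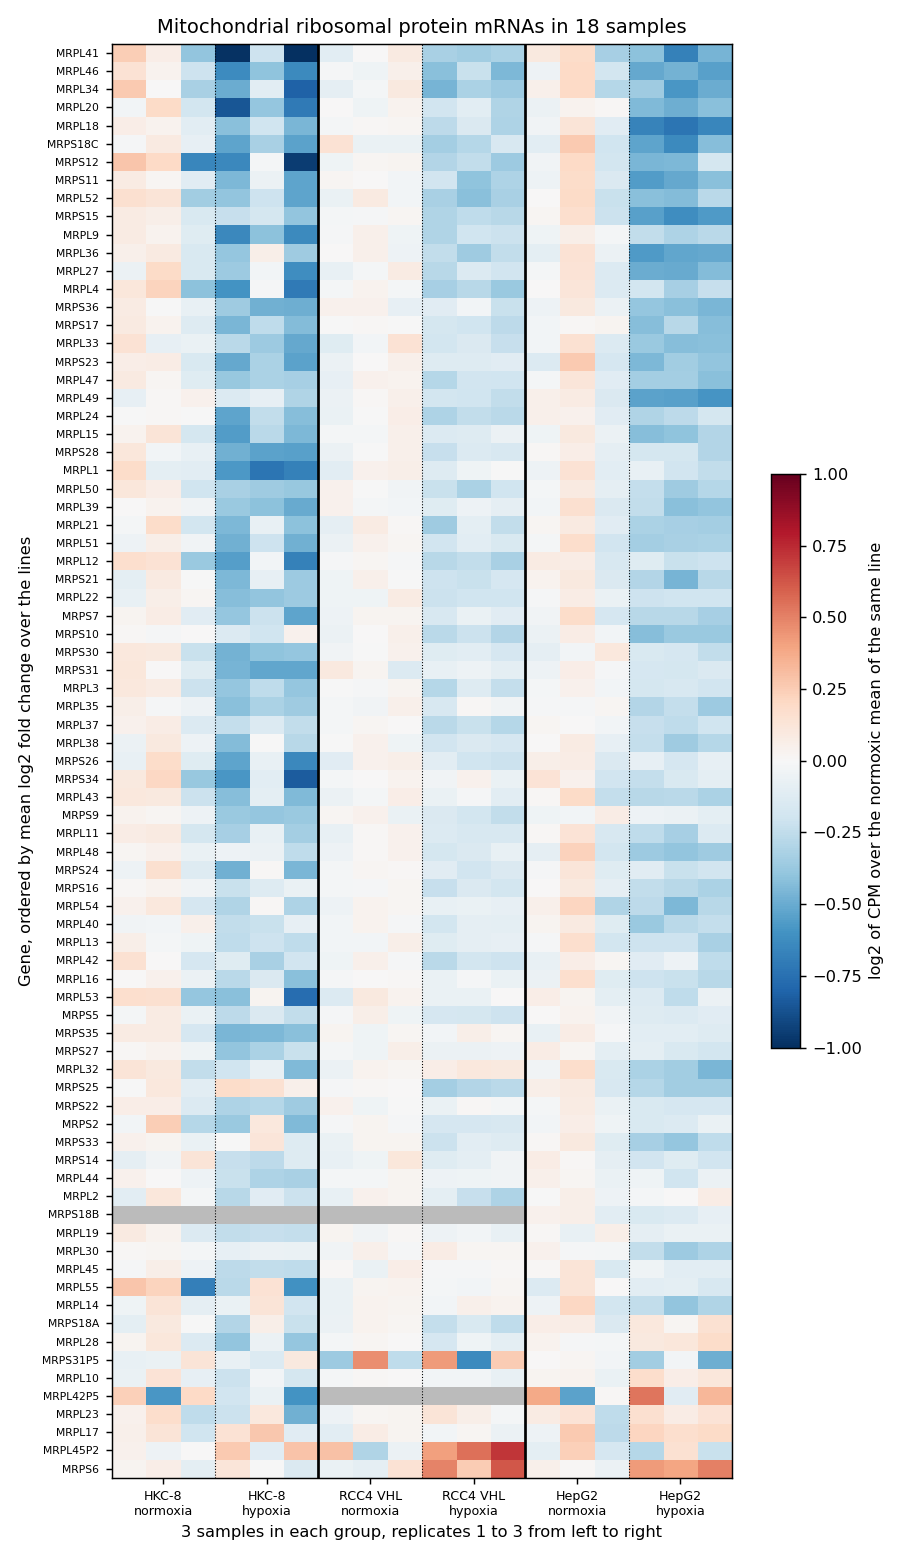
TMM-scaled CPM of the 79 genes in 18 samples as log2 of the value over the normoxic mean of the same line. Blue is lower and red higher, and grey marks genes not tested in that line. Hypoxic columns are blue over most of the rows, whereas MRPS6 at the bottom is red in hypoxic RCC4 VHL and HepG2 cells. The second hypoxic HKC-8 column is paler than its neighbours.

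The HKC-8 count depended on single samples and on the pairing of replicates. Without normoxic replicate 1 it was 7, without normoxic replicate 2 it was 14, without hypoxic replicates 1 and 3 it was 9 and 17, and without hypoxic replicate 2 it was 46. The share of all genes called in these fits is not given, so the counts lack a background. Whether the calls of other genes moved likewise cannot be told from them. With 1 sample left out, the median of the ribosomal genes ran from −0.39 to −0.25. When replicates were paired by number (the replicate block), 61 genes were repressed, beside 21.6% of all genes tested repressed and 21% induced, with a median of −0.31 for the ribosomal genes. The samples of this line differed in a way that followed the GC content of the transcripts. Across the 75 coding genes, the deviation of hypoxic replicate 2, the deepest library, from its 2 fellow replicates had a Spearman rho of 0.80 with GC content, and that of hypoxic replicates 1 and 3 a rho of −0.56 and −0.66. For normoxic replicates 2 and 3 it was 0.67 and −0.40, and in the other lines no sample exceeded 0.40 in size. The 19 coding genes with over 55% GC had a median standard error of 0.16 in HKC-8 against 0.09 for the other 56, and 0 of the 19 were called there, although their median log2 fold change was −0.28. Of these 19, 16 were repressed with the replicate block. In RCC4 VHL 12 of these 19 were repressed, and in HepG2 8 (24.2% and 19.2% of all genes). An offset for transcript length and GC content, described further on, gave 9, 5 and 10 repressed in HKC-8, RCC4 VHL and HepG2 cells. In those fits 10.4%, 24.3% and 20% of all genes were repressed. Of the 19, 0, 3 and 1 were then induced, and the RCC4 VHL median was 0.00, against −0.17 without the offset. The division at 55% was chosen after the values were seen.

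MRPL41, with the highest GC content of the coding genes (66.7%), had 11.7, 10.3 and 7.50 CPM in normoxic and 4.96, 8.52 and 4.83 in hypoxic HKC-8 cells. It was not called in the unpaired test (log2 fold change −0.69, SE 0.25), but was with the replicate block (−0.71, SE 0.16, edgeR adjusted p = 0.00528). MRPL12, whose protein forms the stalk of the large subunit and binds the mitochondrial RNA polymerase, had 76.0, 74.9 and 52.4 CPM in normoxic and 46.4, 66.4 and 42.4 in hypoxic HKC-8 cells. These groups overlapped and the unpaired test made no call (−0.39, SE 0.19), whereas the replicate block gave −0.40 (SE 0.09, edgeR adjusted p = 0.00582). In RCC4 VHL cells MRPL12 fell from 95.4 ± 0.995 to 78.4 ± 2.20 CPM (SD, n = 3; edgeR log2 fold change −0.28, adjusted p = 2.83e-06), and in HepG2 cells its values of 142, 141 and 120 against 123, 115 and 116 gave no call (−0.18, adjusted p = 0.0584).

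Repression in all 3 lines was shared by 18 of the 77 genes tested in every line. Of all genes, 392 of 11418 tested in every line (3.43%) were repressed in all and 435 (3.81%) induced in all. A further 25 were repressed in exactly 2 lines, of which 20 in RCC4 VHL and HepG2 cells, and 11 of the 79 were called in no line. Of all genes tested in any line, 1261 were repressed in exactly 2 lines and 5710 were called in none. The number tested in any line is not given, so these counts have no percent. No ribosomal gene was called in opposite directions in 2 lines, which occurred for 5.97% of all genes. The number repressed in all 3 lines depended on the fit. With the replicate block in HKC-8 cells 32 genes were repressed in all 3 lines, the 18 among them, beside 6.51% of all genes. With an offset for transcript length and GC content in every line, described further on, 8 were (3.63% of all genes), of which only 4 are among the 18 (MRPL9, MRPL18, MRPL46 and MRPS23), and 4 genes were then called in opposite directions. With the block in HKC-8 and the offset together 21 were, 9 of them among the 18 (6.47% of all genes). Of the 18, 13 encode large subunit and 5 small subunit proteins: MRPL3, MRPL9, MRPL15, MRPL18, MRPL20, MRPL22, MRPL24, MRPL33, MRPL46, MRPL47, MRPL50, MRPL51 and MRPS30, and MRPS7, MRPS17, MRPS18C, MRPS23 and MRPS28.

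MRPL46 was among the genes that fell furthest in HKC-8 and RCC4 VHL cells. It had 25.8, 23.9 and 20.2 CPM in normoxic and 15.1, 17.6 and 15.0 in hypoxic HKC-8 cells, 23.5, 23 and 24.5 against 17.7, 20.3 and 17.4 in RCC4 VHL, and 59.1, 70.4 and 54.0 against 42.9, 44 and 42.0 in HepG2 cells. No hypoxic value reached a normoxic value of its line, and the log2 fold changes were −0.55, −0.36 and −0.51. MRPL20, whose promoter holds both words, had 55, 64.1 and 49.4 CPM in normoxic and 31.0, 43.0 and 34.4 in hypoxic HKC-8 cells (−0.64, SE 0.14, edgeR adjusted p = 0.0137). In RCC4 VHL it changed less, from 29.6 ± 0.816 to 25.8 ± 1.77 CPM, and in HepG2 from 39.7 ± 1.29 to 29.1 ± 0.756 (SD, n = 3; −0.20 and −0.45). MRPL18, which has also been described as a carrier of cytosolic 5S rRNA into mitochondria, fell most of all in HepG2 cells, from 129, 144 and 122 to 83.2, 79.6 and 83.8 CPM (−0.68, SE 0.07, edgeR adjusted p = 4.64e-06). Its log2 fold change was −0.35 in HKC-8 and −0.25 in RCC4 VHL cells.

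MRPL9 went from 80.1, 77.6 and 69.8 CPM to 48.5, 57.1 and 48.7 in HKC-8 cells (−0.56), and by −0.24 and −0.28 on the log2 scale in RCC4 VHL and HepG2 cells. MRPL3, among the most abundant of these mRNAs, went from 277, 272 and 222 CPM to 197, 215 and 197 in HKC-8, from 185, 184 and 190 to 153, 170 and 158 in RCC4 VHL, and from 172, 179 and 171 to 154, 156 and 152 in HepG2 cells. The groups did not overlap in any line, and the log2 fold changes were −0.34, −0.21 and −0.18. MRPS28 and MRPS23, both of the small subunit, had log2 fold changes of −0.52 and −0.45 in HKC-8 cells, −0.17 and −0.12 in RCC4 VHL and −0.21 and −0.39 in HepG2 cells. MRPS7, at the head of the small subunit, had, with MRPS23 and MRPL15, one of the smallest responses of the 18 in RCC4 VHL cells (−0.12, −0.12 and −0.11). Its log2 fold changes were −0.37 in HKC-8 and −0.30 in HepG2 cells. The others of the 18 lay between −0.46 and −0.34 in HKC-8, between −0.28 and −0.13 in RCC4 VHL and between −0.53 and −0.19 in HepG2 cells.

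**Figure D3:**
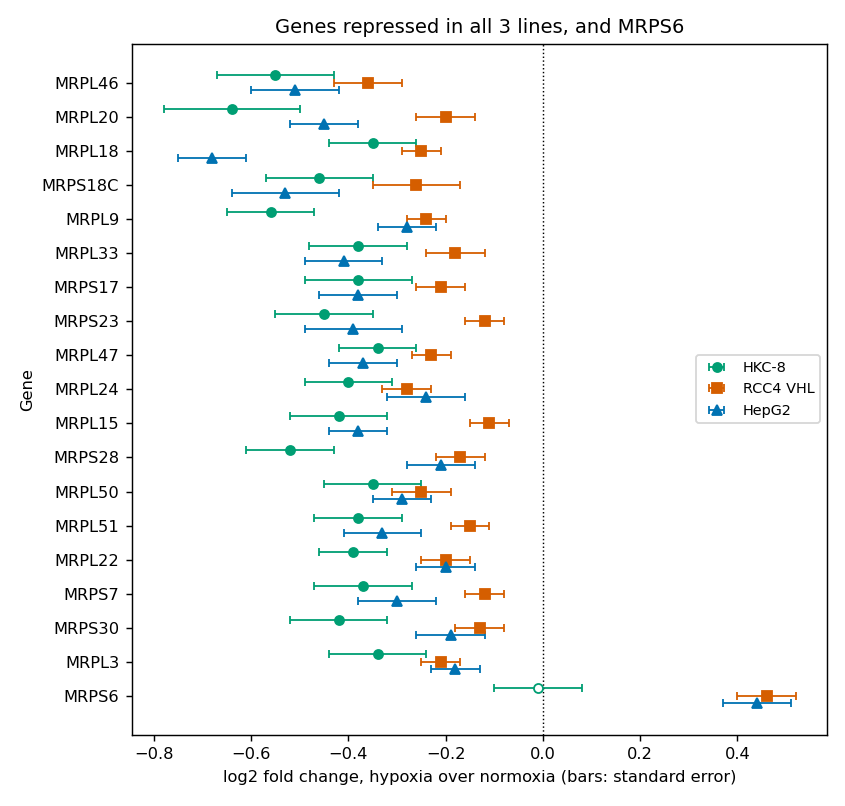
Log2 fold change of hypoxia over normoxia, with its standard error, for the 18 genes repressed in all 3 lines and for MRPS6. Filled symbols passed the test and the open symbol did not. The 18 genes lie left of 0 in each line, mostly nearer to 0 in RCC4 VHL cells, and MRPS6 lies right of 0 in RCC4 VHL and HepG2 cells only.

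MRPS6, the small subunit counterpart of bacterial S6, moved against the rest. It had 109, 107 and 126 CPM in normoxic and 161, 136 and 175 in hypoxic RCC4 VHL cells (log2 fold change 0.46, SE 0.06, edgeR adjusted p = 2.66e-06), and 32.8, 32.0 and 30.4 against 42.6, 41.6 and 45.0 in HepG2 cells (0.44, SE 0.07, adjusted p = 0.000195). Neither pair of groups overlapped. In HKC-8 cells the values were 51.1, 52.6 and 46.9 against 54.7, 50.1 and 45.3, which overlapped throughout (−0.01, SE 0.09). The gene lies at chr21:35445524-35515334 on the plus strand of GRCh37. In its promoter the core GCGTG starts 63 bases before the start site, but that core or ACGTG is found somewhere in the promoters of 67.2% of the genes described here and of 64.7% of all promoters. The only other induced gene was MRPL45P2, a pseudogene symbol on chromosome 17, with 2.40, 1.59 and 1.88 CPM in normoxic and 2.60, 2.87 and 3.21 in hypoxic RCC4 VHL cells (0.56, SE 0.18, edgeR adjusted p = 0.0139). Reads of this copy are hard to tell from those of MRPL45, so its value is uncertain, and without 1 of 2 samples (normoxic replicate 2 or hypoxic replicate 3) its call was lost.

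The strongest falls in RCC4 VHL cells beside MRPL46 were those of MRPL34, MRPL52, MRPL4 and MRPL41. MRPL34 had 49.6, 52.0 and 56.6 CPM in normoxia and 38.2, 42.4 and 41.0 in hypoxia (−0.38, SE 0.05), and MRPL4 had 91.6, 95.2 and 91.8 against 74.0, 76.5 and 71.9 (−0.33, SE 0.04). MRPL41 and MRPL52 changed by −0.33 and −0.36. All 4 were repressed in HepG2 cells too (−0.48, −0.25, −0.51 and −0.37 for MRPL34, MRPL4, MRPL41 and MRPL52). In HepG2 cells, MRPL18 was followed by MRPS15, MRPL49, MRPL36 and MRPS18C. MRPS15 fell from 90.1, 100 and 76.8 to 61.2, 57.9 and 60.1 CPM (−0.57, SE 0.08) and MRPL36 from 36.5, 43.0 and 37.4 to 26.4, 27.2 and 27.3 (−0.53, SE 0.08). Hypoxic values were below normoxic ones throughout. In HKC-8 cells the lowest called response was that of MRPL1, a protein of the L1 stalk, from 28.6, 23.5 and 23.4 to 16.9, 15.2 and 15.8 CPM (−0.66, SE 0.11, edgeR adjusted p = 0.00534). MRPL1 was not called in the other lines (−0.06 in RCC4 VHL and −0.17 in HepG2 cells).

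The 3 paralogous S18 proteins differed. MRPS18C (chr4:84377085-84390888, plus strand, GRCh37), which sits where bacterial S18 does, was repressed in every line, with 19.5, 21 and 18.6 against 13.7, 15.7 and 13.6 CPM in HKC-8 cells and log2 fold changes of −0.46, −0.26 and −0.53. MRPS18A (chr6:43638939-43655528, minus strand), now placed in the large subunit, was repressed in RCC4 VHL cells alone (47.7, 50.7 and 50.3 against 42.0, 44.6 and 41.5 CPM; −0.21, SE 0.05). Its groups overlapped in HKC-8 (−0.15) and HepG2 cells (0.09). MRPS18B (chr6:30585617-30594172, plus strand) had 0 counts in all 12 HKC-8 and RCC4 VHL samples, which allows at most 0.0714 CPM in any of them (3 counts, counting error only), and 1693 to 2131 counts in every HepG2 sample. Its HepG2 values of 46.6, 47.2 and 42.0 against 40.7, 41.2 and 42.8 CPM gave no call (−0.12). It lies in the major histocompatibility complex. Of 164 genes between positions 28000000 and 34000000 of chromosome 6, 62 had 0 counts in all HKC-8, 72 in all RCC4 VHL and 38 in all HepG2 samples, and 5 had 0 in both kidney lines with over 1000 in every HepG2 sample, against 0 of 705 on the rest of the chromosome. Absent mRNA and reads that were not placed in this region in the kidney lines cannot be told apart, so MRPS18B is left out of the counts of genes whose normoxic level differs between lines. It stays among the 79 genes of the interaction test described below, where it was not called. MRPS30, the other large subunit protein with a small subunit name, was repressed in the 3 lines (−0.42, −0.13 and −0.19). In HepG2 cells it was close to the threshold (edgeR adjusted p = 0.0483) and lost its call under DESeq2 (adjusted p = 0.0535). MRPS36 had 33.3, 31.3 and 29.8 against 24.5, 22.5 and 22.4 CPM in HKC-8 (−0.44), was repressed in HepG2 (−0.42), and in RCC4 VHL cells its −0.12 was not called.

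By subunit, 19 of 49 large subunit genes were repressed in HKC-8, 30 in RCC4 VHL and 35 in HepG2 cells. Of the small subunit genes 10 of 25, 18 of 25 and 13 of 26 were, beside 9.12%, 24.2% and 19.2% of all genes. The HKC-8 counts were 41 of 49 and 19 of 25 with the replicate block (21.6% of all genes). Median log2 fold changes were −0.30, −0.15 and −0.29 for the large and −0.32, −0.17 and −0.19 for the small subunit. Proteins with bacterial counterparts and those specific to mitochondria had like medians in the large subunit (−0.31 and −0.29 in HKC-8, −0.16 and −0.15 in RCC4 VHL, −0.25 and −0.29 in HepG2 cells). In the small subunit of RCC4 VHL cells, 14 of 16 genes with bacterial counterparts were repressed and MRPS6 was induced, beside 4 of 9 specific ones (medians −0.19 and −0.08). In HepG2 cells this was 10 of 16 and 3 of 10. In HKC-8 cells it was 5 of 16 and 5 of 9, and 12 of 16 and 7 of 9 with the replicate block. With the length and GC offset, described further on, 18, 20 and 31 large subunit genes were repressed in HKC-8, RCC4 VHL and HepG2 cells. For the small subunit these were 10, 13 and 13 (10.4%, 24.3% and 20% of all genes). Medians were −0.26, −0.06 and −0.20 for the large and −0.27, −0.10 and −0.16 for the small subunit. Of small subunit genes with bacterial counterparts 4, 10 and 9 of 16 were then repressed, and of specific ones 6 of 9, 3 of 9 and 4 of 10. These shares were not compared by a test.

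Other genes of the mitochondrial translation system, from lists drawn up by function, were also called repressed more often than induced, but in RCC4 VHL cells the shares of the assembly, translation factor and DNA expression lists (32%, 35.7% and 33.3%) were not far from the 24.2% of all genes. In HKC-8 and HepG2 cells the shares repressed ran from 20% to 50% and from 42.9% to 57.1% over the 4 lists, beside 9.12% and 19.2% of all genes. With the replicate block in HKC-8 cells, where 21.6% of all genes were repressed, 5 of 7 further ribosomal components, 12 of 25 assembly factors, 10 of 14 translation factors and 9 of 15 genes of mitochondrial DNA expression were. With the length and GC offset the shares ran from 26.7% to 50% in HKC-8 and from 28.6% to 44% in HepG2 cells. Of all genes 10.4% and 20% were repressed there. In RCC4 VHL cells the assembly, translation factor and DNA expression lists then had 40%, 28.6% and 40%, beside 24.3%. One further ribosomal component was induced there with the offset. In the fits without block or offset, 3 of 7 further ribosomal components, named without the MRP prefix, were repressed in HKC-8, 3 in RCC4 VHL and 4 in HepG2 cells, and 0 were induced. CHCHD1, a small subunit protein, was repressed in all 3 lines (−0.33, −0.22 and −0.29). DAP3, a GTP-binding small subunit protein, was repressed in HKC-8 (126, 124 and 116 against 99.9, 93.3 and 96.2 CPM, −0.34), AURKAIP1 in RCC4 VHL (−0.17), and ICT1, a ribosome-bound peptidyl-tRNA hydrolase, in HepG2 cells (−0.42). Of 25 assembly and rRNA modification factors, 6, 8 and 11 were repressed and 0, 2 and 1 induced in HKC-8, RCC4 VHL and HepG2 cells. MPV17L2, an assembly factor of the inner membrane, was the lowest of them in RCC4 VHL and HepG2 cells (17.5, 17.1 and 17.3 against 11.1, 9.45 and 11.1 CPM, −0.71, and 21, 22.6 and 20.1 against 11.4, 11.8 and 12.3 CPM, −0.84) and was repressed in HKC-8 cells (−0.53). FASTKD2, an RNA granule protein, fell in HKC-8 (−0.67) and HepG2 cells (−0.41), and MRM1, an rRNA methyltransferase, in RCC4 VHL cells (−0.40). The rRNA methyltransferases TFB1M (0.36) and NSUN4 (0.13) rose in RCC4 VHL cells, and the GTPase NOA1 (0.25) in HepG2 cells. In HepG2 cells NSUN4 was repressed (−0.34).

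Of 14 translation factors 7, 5 and 6 were repressed and 0 were induced. With the length and GC offset 7, 4 and 4 were repressed and 0, 0 and 1 induced. The values that follow are from the fits without it. TACO1, an activator of COX1 translation, was repressed in every line (−0.46, −0.25 and −0.50). So was the elongation factor GFM1 (−0.48, −0.15 and −0.22). The initiator tRNA formyltransferase MTFMT was repressed in HKC-8 (−0.36) and RCC4 VHL cells (−0.27). The recycling factor GFM2 was repressed in HKC-8 (−0.34) and HepG2 cells (−0.43). Of 15 genes of mitochondrial DNA expression and RNA turnover 3, 5 and 8 were repressed and 1, 3 and 1 induced. The induced gene common to the lines was LONP1, the matrix protease that is a known HIF target, with 163, 157 and 129 against 230, 258 and 235 CPM in HKC-8 cells (0.69), 0.32 in RCC4 VHL and 0.63 in HepG2 cells. PNPT1, the mitochondrial polynucleotide phosphorylase, fell in HKC-8 and HepG2 cells (−0.55 and −0.56). The transcription factor TFB2M was repressed in every line (−0.54, −0.25 and −0.43). The elongation factor TEFM was called in HepG2 cells only (−0.44) and POLRMT in RCC4 VHL cells only (−0.30). SLIRP was repressed in RCC4 VHL (−0.38) and HepG2 cells (−0.43). LRPPRC, the RNA-binding partner of SLIRP, rose by 0.17 in RCC4 VHL cells.

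Among 10 regulators of mitochondrial gene expression the directions were mixed (2 induced and 1 repressed of 9 tested in HKC-8, 5 and 4 of 10 in RCC4 VHL, 1 and 4 of 10 in HepG2 cells). MXI1, a MYC antagonist and HIF target, was induced in every line (1.89, 0.98 and 1.19). MYC rose in HKC-8 (0.68) and RCC4 VHL cells (0.25). GABPB1, a subunit of the ETS-type factor GABP, fell in HKC-8 (−0.31) and HepG2 cells (−0.25) but rose in RCC4 VHL cells (0.18). The subunit GABPA rose in RCC4 VHL cells (0.26) and was not called in HKC-8 (0.01) or HepG2 cells (0.13). The coactivator PPARGC1A fell in RCC4 VHL from 23 ± 0.477 to 14.2 ± 1.11 CPM (−0.70), and YY1 rose there (0.29). ESRRA fell in RCC4 VHL (−0.39) and HepG2 cells (−0.24). The related coactivators PPARGC1B and PPRC1 fell in HepG2 (−1.26 and −0.26) and, less, in RCC4 VHL cells (−0.29 and −0.15). Whether any of these changes bears on the ribosomal genes was not tested.

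**Figure D4:**
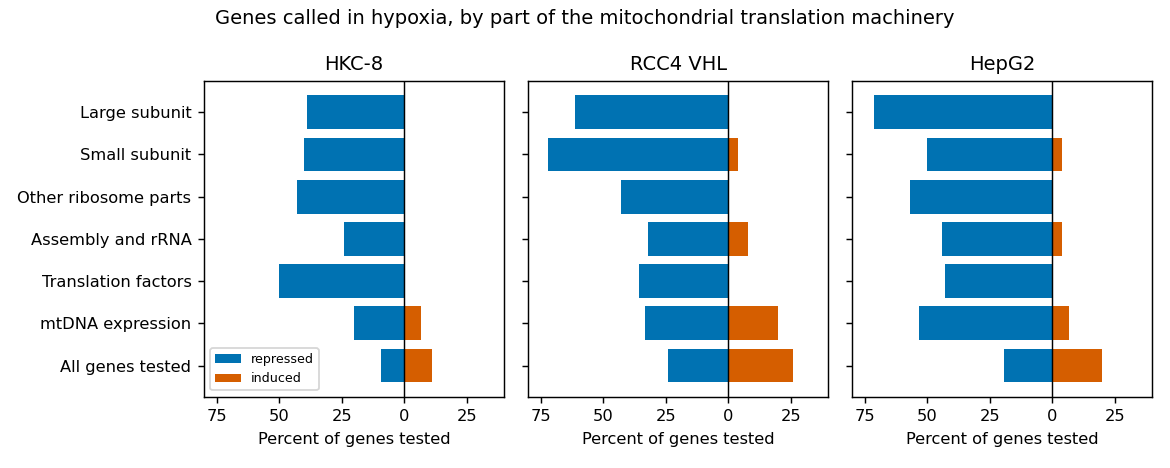
Percent of the genes tested in each list that were repressed (left of 0) or induced (right of 0) in hypoxia, by line, with all genes tested in the bottom row, from the fits without the replicate block. For the 6 lists the bars lie mainly to the left, and for all genes they are of nearly equal length on both sides.

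The mitochondrial ribosomal genes have short transcripts, and short transcripts as a class were also somewhat lower in hypoxia. The median length of the canonical transcript was 1242 bases for 76 coding members and 3449 bases for 10145 coding genes tested in every line, with GC contents of 48.0% and 47.9%. Among other genes with transcripts under 2000 bases, 10.6% were repressed in HKC-8, 36.2% in RCC4 VHL and 25% in HepG2 cells, with medians of −0.05, −0.09 and −0.08. Of the ribosomal genes under that length, 42.4%, 62.7% and 63.3% were repressed, with medians of −0.34, −0.15 and −0.25. When smooth trends of each sample with length and GC content were taken out as an offset, 29 genes were repressed in HKC-8, 33 in RCC4 VHL and 45 in HepG2 cells, with medians of −0.26, −0.07 and −0.20, and 0, 6 and 4 were induced. Over all genes the same fits called 10.4%, 24.3% and 20% repressed and 12%, 24.6% and 21.2% induced. In RCC4 VHL cells 56 of 77 genes still lay below 0, and 17 of the 48 calls were lost, among them those of MRPL15, MRPL20, MRPL51, MRPS7, MRPS18A, MRPS28 and MRPS30, with MRPS7 at 0.00. In HKC-8 10 of 30 calls were lost and 9 gained, and in HepG2 7 of 49 were lost and 3 gained.

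The response differed between HKC-8 and HepG2 cells for few genes. The labels give both lines the same exposure, but the titles give 0.1% oxygen for hypoxic HKC-8 and 0.5% for hypoxic HepG2 cells. If the titles hold, line and oxygen level cannot be told apart. In the test of the interaction of line and oxygen, the response of 3 of 79 genes was higher in HepG2 (5.02% of 15046 genes) and that of 2 was lower (4.28%), so the shares are near the background. MRPL1, MRPS6 and MRPS9 were the 3 and MRPS25 and MRPL49 the 2. MRPS25 had 78.8, 84.9 and 73.6 against 89.9, 88.1 and 81.8 CPM in HKC-8 cells, where the hypoxic samples overlapped with the normoxic ones, and 50, 51.0 and 42.9 against 39.4, 37.8 and 37.7 in HepG2 cells, where they did not. MRPS9 had 94.3, 93.0 and 88.5 against 70.9, 70.3 and 71.0 CPM in HKC-8 and 56.3, 56.8 and 61.0 against 56.0, 55.7 and 54.3 in HepG2 cells. With the replicate block the counts were 9 and 6, beside 11% and 9.06% of all genes. RCC4 VHL cells were left out of this test because their labelled oxygen level and duration differ. As a description, the log2 fold changes of 75 coding genes had a Pearson r of 0.32 between HKC-8 and RCC4 VHL, 0.34 between HKC-8 and HepG2 and 0.60 between RCC4 VHL and HepG2 cells (0.43, 0.47 and 0.46 over all genes tested in the lines compared). The genes share the library, and their differences in length and GC content, so no p is given.

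In normoxia the lines differed in the level of most of these genes, as they did in that of most genes. Of 78 genes, MRPS18B left out, RCC4 VHL exceeded HKC-8 cells for 40 and was lower for 23 (39.4% and 41.4% of 14806 genes), HepG2 exceeded HKC-8 for 40 and was lower for 18 (42.6% and 40.5%), and HepG2 exceeded RCC4 VHL for 32 and was lower for 31 (45.3% and 38.1%). In both comparisons with HKC-8 cells, whose libraries were all deeper, line and sequencing depth cannot be told apart. MRPS12, the counterpart of bacterial S12 in the decoding centre, had 23.3, 22.1 and 12.2 CPM in HKC-8, 143, 149 and 150 in RCC4 VHL and 52.6, 62.0 and 47.5 in HepG2 cells, a log2 difference of 3.01 (SE 0.19) between RCC4 VHL and HKC-8. MRPL41 was ordered the same way, with 9.86 ± 2.16, 64.9 ± 4.49 and 39.0 ± 7.06 CPM (SD, n = 3), and MRPS24 with 31.1 ± 3.29, 154 ± 1.98 and 51.8 ± 4.26. MRPL34 was low in HKC-8 cells (12.9 ± 2.58) and similar in the others (52.8 ± 3.56 and 48.6 ± 8.12). MRPS9 was highest in HKC-8 cells (91.9 ± 3.07, against 42.3 ± 1.62 in RCC4 VHL and 58.0 ± 2.55 in HepG2), as was MRPS25 (79.1 ± 5.65, 42.2 ± 0.409 and 48.0 ± 4.38). MRPL24 was lowest in HepG2 (24.6 ± 1.57, against 64.4 ± 0.396 and 55.5 ± 2.49 in HKC-8 and RCC4 VHL). MRPS6 and MRPS33 were highest in RCC4 VHL (114 ± 10.2 and 114 ± 4.32 CPM) against 31.7 ± 1.22 and 38.0 ± 2.82 in HepG2 cells, log2 differences of −1.82 and −1.56 for HepG2 over RCC4 VHL. Of the pseudogene symbols, MRPS31P5 had 2.94 ± 0.232, 1.08 ± 0.359 and 5.92 ± 0.0994 CPM and MRPL42P5 0.532 ± 0.152, 0.0661 ± 0.0699 and 0.322 ± 0.0986 in HKC-8, RCC4 VHL and HepG2 cells. MRPL45P2 had 4.03 ± 0.134, 1.96 ± 0.410 and 2.33 ± 0.364. GC content and the log2 difference between RCC4 VHL and HKC-8 had a Spearman rho of 0.44 over the 78 ribosomal genes with a value and of 0.09 over all genes. These 78 include MRPS18B, at a difference of 0.00, and lack MRPL42P5, which had no GC value.

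Per kilobase of canonical transcript, the mean normoxic level over the lines was highest for MRPL37 (149 CPM per kb), MRPL51 (124) and MRPL18 (121) and lowest for MRPL42 (7.83), MRPS11 (10.0) and MRPS18B (10.8) among the 76 coding genes. MRPL37 had 107 CPM per kb in HKC-8, 240 in RCC4 VHL and 99.8 in HepG2 cells. The low value of MRPL42 rests on a canonical transcript of 15557 bases, and its CPM in normoxia was 138 ± 15.0 in HKC-8 cells, and that of MRPS18B on the lines with 0 counts.

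Many of these genes share a promoter region with a neighbour read in the opposite direction. A start site of another coding gene within 1000 bases, head to head, was found for 25 of 76 (32.9%), against 1449 of 10145 coding genes tested in every line (14.3%). One such pair is formed by MRPL46 (chr15:89002708-89010621, minus strand) and MRPS11 (chr15:89010684-89024007, plus strand, GRCh37), whose canonical transcripts start 320 bases apart and which changed by −0.55 and −0.33 in HKC-8 (MRPS11 was called there only with the replicate block, −0.34, edgeR adjusted p = 0.0108), −0.36 and −0.30 in RCC4 VHL and −0.51 and −0.50 in HepG2 cells. Partners outside the mitochondrial ribosome had median log2 fold changes of −0.15, −0.11 and −0.12, and 2 of 19 in HKC-8, 5 of 19 in RCC4 VHL and 7 of 20 in HepG2 cells were repressed (10.5%, 26.3% and 35%, beside 9.12%, 24.2% and 19.2% of all genes), while 0, 2 and 2 were induced. MRPL18 and its partner TCP1, a chaperonin subunit, were both repressed in the 3 lines (TCP1 −0.37, −0.19 and −0.36). MRPL27 and its partner EME1 parted in RCC4 VHL cells (−0.20 and 0.27), as did MRPL51 and NCAPD2 (−0.15 and 0.13).

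RefSeq promoters of 300 bases, from 250 before to 50 after the start, were given for 67 of the 79 genes. The ETS-type word CCGGAAG (or its reverse complement) was in 28 of them (41.8%) and in 20.8% of 8504 promoters of genes tested in every line. The YY1-type word AAGATGGC was in 20 (29.9%, against 6.04%). In 15 of them it lay after the start, beginning between bases 7 and 36 and always in the forward direction. A word after the start was thus found in 22.4% of these promoters, and in 4% of all. The NRF1 word GCATGCGC was in 6 (8.96%, against 5.99%), and the E-box CACGTG, which overlaps the core ACGTG, in 6 (8.96%, against 10.5%). The responses of genes with and without a word were not compared by a test. Genes with the YY1-type word had medians of −0.34, −0.20 and −0.29 in HKC-8, RCC4 VHL and HepG2 cells and those without it −0.31, −0.15 and −0.25. Of the 20 genes with it 10, 16 and 14 were repressed, and of the 47 without it 15, 28 and 29. With the replicate block in HKC-8 cells this was 17 of 19 tested and 36 of 47. For the ETS-type word the medians were −0.32, −0.16 and −0.32 with and −0.30, −0.19 and −0.23 without it, and for the hypoxia response element core −0.30, −0.18 and −0.25 with and −0.33, −0.15 and −0.29 without it. The 6 genes with the E-box had medians of −0.23, −0.23 and −0.38, and the other 61 −0.32, −0.16 and −0.28. For the NRF1 word, also in 6 genes, they were −0.37, −0.20 and −0.29 with and −0.31, −0.17 and −0.28 without it. These matches are letters in a window and were not tested as binding sites.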

How the data were processed

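Gene counts from polyA+ RNA of 18 samples were analysed. Per the study's methods and the submitters' processing notes, the authors trimmed reads with Trim Galore (0.3.3), aligned them to GRCh37 with TopHat (2.0.8b) and Bowtie (1.0.0), removed fragments without a unique position with SAMtools (0.1.19) and counted reads per UCSC gene with HTSeq (0.5.4p3, intersection-strict). The deposited values are raw counts, 23106 genes per sample, without normalization. Removal of fragments without a unique position lowers the counts of genes with close copies, and the strand setting is not given in the sources used here.

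Everything after the counts was computed for this text with R 4.3.3 and edgeR 4.0.16 (glmQLFit and glmQLFTest). Genes were kept by filterByExpr, scaled by TMM and fitted separately in each line without a block. P-values were Benjamini-Hochberg adjusted over all genes tested, and 0.05 was the threshold for all single-gene calls. The standard error is the size of the log2 fold change over the square root of the F statistic. CPM are TMM-scaled unless said to be of the total count. HKC-8 and HepG2 samples (12) entered the interaction test and 9 normoxic samples the line comparisons. The test was tried on simulated counts with known changes.

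Replicate numbers are shared between groups in the labels. Across genes, deviations of same-numbered normoxic and hypoxic samples correlated by 0.109, 0.453 and 0.447 in HKC-8 cells. All exceeded the minimum of 0.1, although in pair 1 the same-numbered sample was not the best match. HKC-8 samples therefore counted as paired, but the main counts and fold changes are from the fit without the block. Counts with the block are given beside them. With it 31 single calls were gained and 0 lost, of which those of genes whose HKC-8 values are printed are given. The correlations were −0.0103, 0.0333 and 0.0147 in RCC4 VHL and 0.165, 0.0617 and 0.184 in HepG2 cells, which did not count as paired.

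The genes and lists were chosen with earlier results of these data known. Named genes are those with the 5 highest and 5 lowest called changes per line, those repressed in all 3 or induced in 2 lines, up to 3 each way in the interaction and line comparisons, the 3 highest and lowest per kilobase, MRPS18A, MRPS18B, MRPS18C, MRPS30, MRPS36 and MRPL12, up to 2 each way per line and list, and CA9, VEGFA and NDRG1. MRPS11, as a head-to-head partner, the partners TCP1, EME1 and NCAPD2, and GABPA were named after their values were seen. Lengths, GC content and start sites were from GENCODE v44 lifted to GRCh37, and promoters from RefSeq (GRCh38.p14). No promoter entry was matched for MRPL2, MRPL10, MRPL13, MRPL15, MRPL21, MRPL23, MRPL35, MRPL42P5, MRPL45P2, MRPS28, MRPS31P5 and MRPS36.

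Alternatives were DESeq2 1.42.0, its size factors, library totals, other filters, 1 fit of 18 samples, the block, each sample left out, and, added after the data were examined, an offset for length and GC content. The blood markers were tested in no line, the epithelial keratins were high in every line, and of 3 fibroblast and 2 endothelial markers at most 2 and 2 were tested in a line.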

Additional observations from a re-analysis of the deposited data

Results flagged for a closer look

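The hypoxic response of 5 genes differed between HKC-8 and HepG2 cells in the edgeR test of the interaction of line and oxygen (12 samples, Benjamini-Hochberg adjusted over 15046 genes). The 3 higher and 2 lower in HepG2, of 79 (3.8% and 2.53%), are no more than the 5.02% and 4.28% of all genes. The log2 response in HepG2 minus that in HKC-8 was 0.50 for MRPL1 (SE 0.14, adjusted p = 0.0365), which was repressed in HKC-8 only. It was 0.45 for MRPS6 (SE 0.12, adjusted p = 0.0246), which was induced in HepG2 and at −0.01 in HKC-8, and 0.31 for MRPS9 (SE 0.09, adjusted p = 0.0396), at −0.38 in HKC-8 and −0.07 in HepG2. It was −0.45 for MRPS25 (SE 0.11, adjusted p = 0.0198), at 0.13 in HKC-8 and −0.33 in HepG2, and −0.38 for MRPL49 (SE 0.11, adjusted p = 0.0403), at −0.17 and −0.56. When 1 sample was left out of the 12, the call was lost in 8 of the fits for MRPL1, in 9 each for MRPL49 and MRPS9, in 7 for MRPS6 and in 3 for MRPS25. Depth was greater in every HKC-8 sample than in any HepG2 sample, and its part in these differences was not tested. The titles give 0.1% oxygen for hypoxic HKC-8 and 0.5% for hypoxic HepG2 samples. If they hold, line and oxygen level cannot be told apart.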

How the results depend on the processing

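Over 14 or 15 alternatives per line the genes below 0 numbered 71 to 75 in HKC-8, 56 to 74 in RCC4 VHL and 65 to 73 in HepG2 cells, and the medians ran from −0.39 to −0.25, −0.24 to −0.07 and −0.36 to −0.20. In 1 fit of 18 samples 56 genes were repressed in HKC-8 and 21 in RCC4 VHL cells. With the replicate block 61 were repressed in HKC-8 cells, and with the block and the length and GC offset 58 were repressed and 1 induced. With the offset alone 6 were induced in RCC4 VHL and 4 in HepG2 cells. For the interaction, the counts higher and lower in HepG2 were 9 and 6 with the replicate block, 7 higher with DESeq2, and 0 and 6 with library totals, which moved the median over all genes by −0.10. The genes repressed in all 3 lines went from 18 to 32 with the block in HKC-8 and to 8 with the offset. In the lines that did not count as paired the block gave 48 (RCC4 VHL) and 51 (HepG2) repressed genes, beside 24.5% and 21.3% of all genes. With 1 sample left out, repressed genes numbered 7 to 46 in HKC-8 and induced ones 1 to 2 in RCC4 VHL and 1 to 2 in HepG2 cells, and the interaction gave 0 to 5 higher and 0 to 2 lower. No share of all genes is given for these fits, for the fit of 18 samples, or for DESeq2 and library totals. Low counts of the 2 pseudogene symbols MRPL42P5 and MRPS31P5 limit what could be seen for them.

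The sign of MRPS6 in HKC-8 cells (−0.01) turned to 0.01 with library totals, 0.00 with at least 10 counts in every sample, 0.08 with the offset and with the block and offset, and 0.01 to 0.06 in 3 fits that left out 1 sample (0.01, 0.03 and 0.06). In RCC4 VHL cells MRPS7 and AURKAIP1 came to 0.00 with the offset, and in HepG2 cells MRPS18A came to 0.00 with library totals. The causes were not tested.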
